A study of Rattus norvegicus with 26 samples.

Results

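The ribosome biogenesis factors described here are 35 genes for proteins that make, process and assemble ribosomal RNA. They were chosen by gene symbol, with earlier results of these data known. All 35 were rows of the table of 34034 genes. A total of 34 had enough counts to be tested among 10064 genes. Nop2, a methyltransferase of large subunit rRNA, had a median of 6 counts per library (range 1 to 14) and was not tested. By role, the set holds 2 subunits of RNA polymerase I, 2 nucleolar phosphoproteins, 5 proteins of small nucleolar ribonucleoproteins (snoRNPs), 8 factors of the small subunit processome, 8 late factors of the 40S subunit, 9 factors of the 60S subunit and the nucleolar deubiquitinase Usp36.

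Ribosome production starts in the nucleolus, where RNA polymerase I transcribes a long precursor that snoRNPs modify and that nucleases cut into the mature rRNAs. Assembly factors bind the precursor in a fixed sequence, and the small and large subunits leave the nucleus separately for their last maturation steps in the cytoplasm. In skeletal muscle, growth after loading is known to be accompanied by more ribosome production, and the pathway is regulated by mTOR signalling and by Myc.

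Transcripts were counted in soleus, a slow postural muscle, of aged female rats from a pair of lines selected for running capacity, in generation 44. The high capacity (HCR) and low capacity (LCR) lines were each studied after voluntary running and in sedentary animals. The 26 libraries comprised 5 HCR running, 5 LCR running, 8 HCR sedentary and 8 LCR sedentary rats. Runners had a wheel in a cage shared by a pair of animals for more than 5 months, and sedentary rats had no wheel. All groups were female, aged and fed standard chow without restriction, and the labels state no age in months. The runners are labelled as a cohort of their own and shared cages, so running, cohort and cage cannot be told apart.

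Total counts ran from 1099961 to 2523942 per library, and the 35 members together had between 2382 and 6256 counts in a library. The 8 slow fibre markers summed to between 26870 and 53130 CPM (counts scaled to library size with TMM factors) in every library, against 2357 to 12620 CPM for the 9 fast fibre markers, so slow markers lead in every library of this muscle. HCR running 5 and LCR running 5 have titles that name the other line while their genotype and group labels do not. They were kept under their genotype, and values without them are given for Riok1, Gtpbp4, Nob1, Usp36, Nolc1 and Tsr1. Each library was taken as 1 animal, and p-values rest on the spread between libraries, estimated over all groups together. Shared cages were not modelled, so runners may not be independent animals. This limits the line comparison in runners as well.

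As a group, the members took similar shares of counts in the groups. They made up 0.223 ± 0.0140% of counts in HCR runners (SD, n = 5), 0.227 ± 0.0148% in LCR runners (n = 5), 0.224 ± 0.0153% in sedentary HCR rats (n = 8) and 0.228 ± 0.0135% in sedentary LCR rats (n = 8). The group means lay within 1 SD of each other. The members that passed a test are described by role below, and the plot of line differences gives all 34.

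**Figure D1:**
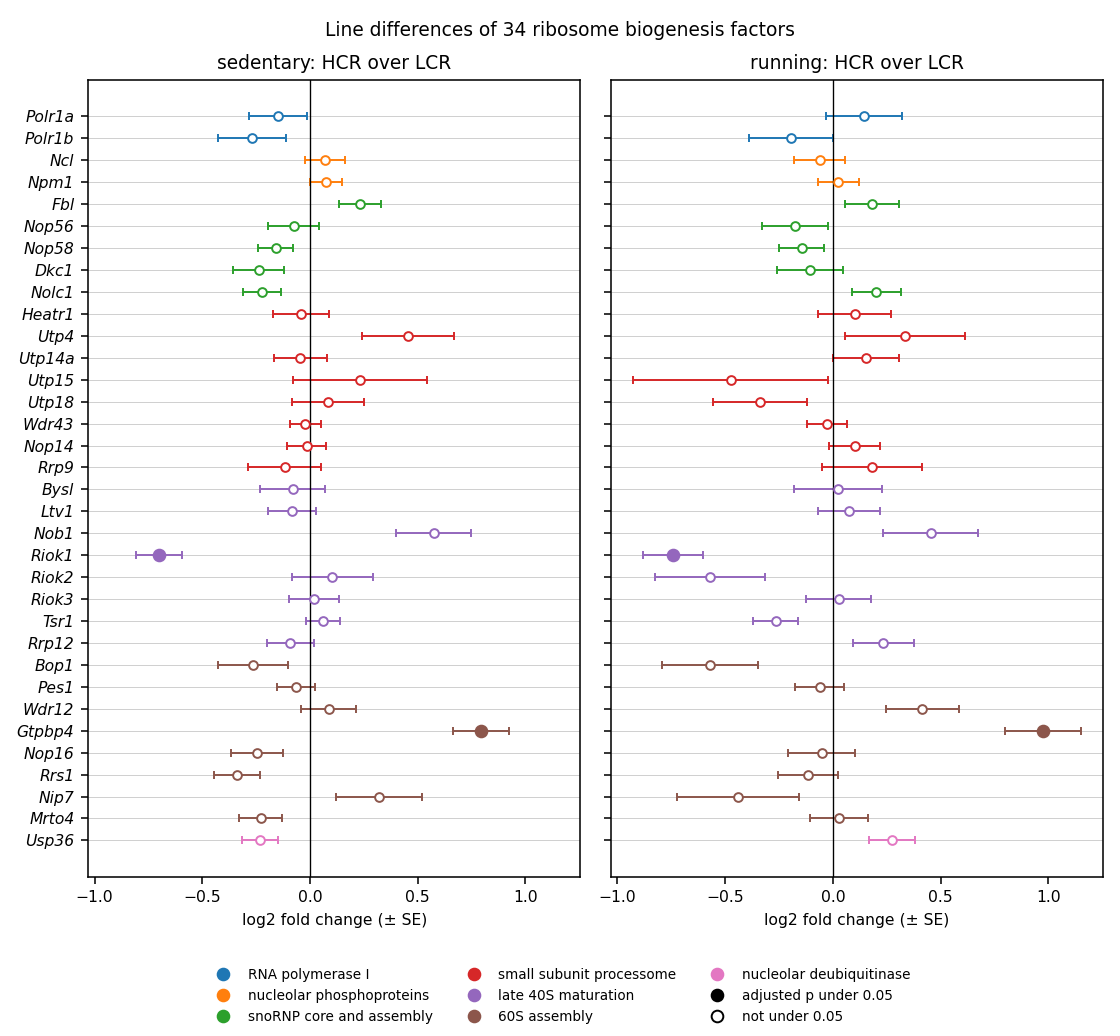
Log2 fold change (HCR over LCR, ± SE, edgeR quasi-likelihood fit) of the 34 tested members in sedentary rats (left, n = 8 each) and runners (right, n = 5 each), coloured by role, with filled points for an adjusted p under 0.05. Riok1 lies left of 0 and Gtpbp4 right of 0 with filled points in both panels, and the other members have open points.

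Line differences were found for Riok1 and Gtpbp4, in opposite directions and in both activity groups. Riok1, an atypical kinase that acts on late cytoplasmic 40S precursors, was lower in HCR. Gtpbp4, a nucleolar GTPase of 60S assembly, was higher in HCR. In sedentary rats 2 of 34 members were called, beside 2.72% of all tested genes. In runners the same 2 of 34 were called, beside 0.626% of all tested genes. At an unadjusted p under 0.05 by edgeR, 10 of 34 members stood out in sedentary rats, beside 15.9% of all tested genes. In runners 8 of 34 did, beside 8.58%. Of these, 4 were higher and 6 lower in HCR in sedentary rats, and 4 were higher and 4 lower in runners. Both counts include Riok1 and Gtpbp4.

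In HCR runners Riok1 had 35.3, 36.3, 46.1, 45.6 and 49.1 CPM, against 74.9, 79.3, 63.7, 66.97 and 65.1 CPM in LCR runners. Every HCR runner lay below every LCR runner. In sedentary HCR rats its level ran from 37.3 to 58.1 CPM (median 41.1), against 50.4 to 81.6 CPM (median 75.9) in sedentary LCR rats, and these groups overlapped. The log2 fold change was -0.74 (SE 0.14, adjusted p = 0.00338) in runners and -0.70 (SE 0.11, adjusted p = 9.55e-05) in sedentary rats by the edgeR quasi-likelihood test with Benjamini-Hochberg adjustment, that is a level of 0.597 and 0.615 of that in LCR.

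Gtpbp4 had 27.0, 28.8, 24.8, 18.2 and 21.5 CPM in HCR runners, against 8.68, 12.7, 14.5, 12.0 and 15.0 CPM in LCR runners. In sedentary HCR rats it ran from 21.2 to 33.2 CPM (median 25.6), against 12.4 to 17.5 CPM (median 15.3) in sedentary LCR rats. The lines did not overlap in either activity group. Its level was 1.96-fold higher in HCR runners than in LCR runners (0.97 on the log2 scale, SE 0.18, adjusted p = 0.00266 by edgeR). In sedentary rats it was 1.73-fold higher in HCR (0.79, SE 0.13, adjusted p = 0.000312).

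**Figure D2:**
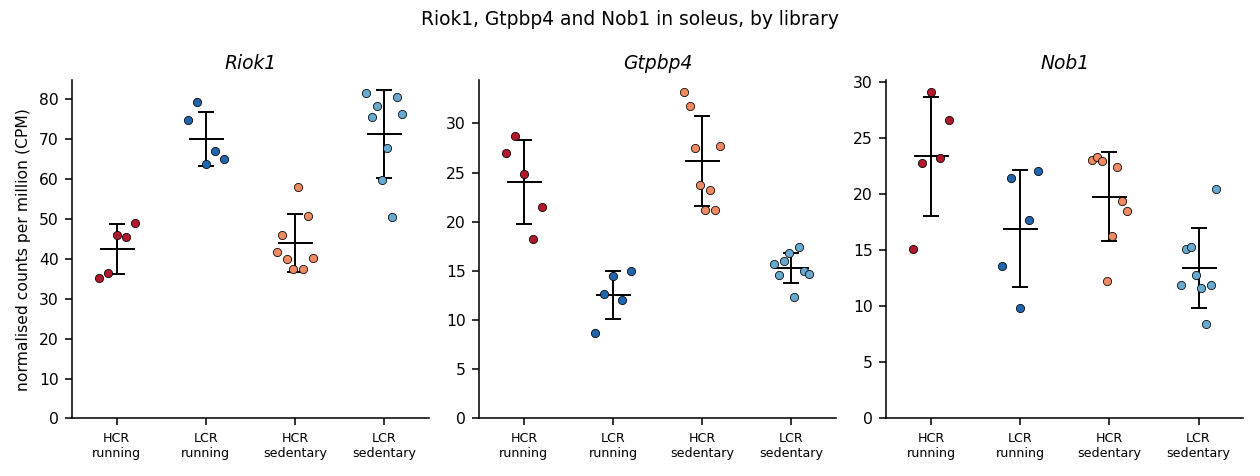
Normalised level in CPM of Riok1, Gtpbp4 and Nob1, with 1 point per library, the bar at the group mean and whiskers of 1 SD (n = 5, 5, 8 and 8). The HCR groups lie lower for Riok1 and higher for Gtpbp4, and Nob1 overlaps between the lines.

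Counted fragments lie near transcript 3' ends, and whether the lines differ in sequence there was not tested. Under the line named in the titles of HCR running 5 and LCR running 5, neither gene passed in runners (adjusted p = 0.386 for Riok1 and 0.296 for Gtpbp4), and 0 of all tested genes did. Without these libraries both passed in runners, at -0.82 (adjusted p = 0.0099) for Riok1 and 1.06 (adjusted p = 0.00713) for Gtpbp4 by edgeR. In bulk tissue fewer cells of a type and less RNA per cell cannot be told apart. Of 9 fast fibre markers, 3 were lower in HCR runners (Tnni2, Tnnt3 and Myh2), where 0.626% of all tested genes were called. In sedentary rats 0 of these markers passed, beside 2.72% of all tested genes. Their sum moved with the line in runners, at 2429 to 4944 CPM in HCR against 5480 to 12390 CPM in LCR without overlap, and overlapped in sedentary rats, at 2357 to 8872 CPM in HCR against 6651 to 12620 CPM in LCR. Adipocyte markers summed to 236.7 to 472.6 CPM in sedentary HCR rats and 163.8 to 361 CPM in sedentary LCR rats, and to 204.4 to 329.1 CPM in HCR runners and 148.6 to 248.3 CPM in LCR runners. Of 5 tested adipocyte markers, 0 passed in either line comparison, and of 10 tested macrophage markers 1 (Folr2) was higher in sedentary HCR. No marker of any list was at 0 in every library. The part of these markers in the results was not tested.

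The promoters of Riok1 and Gtpbp4 are shown because these are the members that differed between the lines. They come from RefSeq (GRCr8), span 250 bases before the annotated start, and are the reference assembly's, not the lines' own genomes. Capitals mark CGGAAG or its reverse complement CTTCCG, a core motif of ETS factors, searched on both strands; it was chosen after the sequences were read.
Riok1, GRCr8 chr17:26995383-26995632, minus strand: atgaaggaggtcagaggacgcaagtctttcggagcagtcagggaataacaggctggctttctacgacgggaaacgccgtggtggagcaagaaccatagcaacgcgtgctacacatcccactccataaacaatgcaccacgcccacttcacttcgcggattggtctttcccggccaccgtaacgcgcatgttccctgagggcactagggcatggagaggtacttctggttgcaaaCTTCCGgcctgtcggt
Gtpbp4, GRCr8 chr17:65999133-65999382, plus strand: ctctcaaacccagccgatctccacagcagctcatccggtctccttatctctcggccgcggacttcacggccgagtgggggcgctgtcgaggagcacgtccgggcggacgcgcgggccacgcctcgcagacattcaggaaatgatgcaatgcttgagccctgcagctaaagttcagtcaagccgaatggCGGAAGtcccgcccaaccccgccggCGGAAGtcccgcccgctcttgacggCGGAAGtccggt
Riok1 holds 1 match and Gtpbp4 holds 3. Of the 35 members, 32 matched the promoter table. CGGAAG or CTTCCG was in 15 of these 32 (46.9%), against 13.9% of 33469 promoters of the same length. The 15 include Riok1 and Gtpbp4, whose sequences were read before the motif was chosen, so their matches were fixed in advance. For both motifs the comparison holds every promoter of the table, whether or not its gene was tested in soleus. The share among tested genes was not computed. The E-box CACGTG, a site of Myc and Max, reads alike on both strands and cannot overlap with the other motif. In the table's full window, which adds 50 bases after the start, it was in 11 of 32 members (34.4%), against 6.42% of all promoters. In the 250 bases before the start it was in 6 of 32 (18.8%), namely Dkc1, Ltv1, Pes1, Riok2, Utp18 and Utp4, against 5.59%. Neither Riok1 nor Gtpbp4 held an E-box in these windows.

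Both genes lie on chromosome 17. Among 5 tested genes on each side in RefSeq order, 1 of 10 neighbours of Riok1 was called in both line comparisons, and 0 of 10 neighbours of Gtpbp4 were. Over all tested genes, 2.72% were called in sedentary rats and 0.626% in runners, and the share called in both was not computed. That neighbour is Dsp, which encodes the desmosomal protein desmoplakin and lies next to Riok1 in the tested order. Dsp was at 15.2 ± 3.72 CPM in HCR runners and 3.82 ± 1.18 CPM in LCR runners (SD, n = 5 each), and at 17.1 ± 5.95 CPM in sedentary HCR and 7.25 ± 2.85 CPM in sedentary LCR rats (n = 8 each). Its log2 fold change was 1.94 (SE 0.33, adjusted p = 0.00116) in runners and 1.25 (SE 0.22, adjusted p = 0.000813) in sedentary rats by the edgeR quasi-likelihood test, opposite to Riok1.

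Among the late 40S factors, Nob1 had the smallest p after Riok1 in sedentary rats, while Tsr1 and Riok2 came before it in runners. Nob1 encodes the endonuclease that makes the 3' end of 18S rRNA. It was at 15.1, 22.8, 29.1, 23.2 and 26.6 CPM in HCR runners, against 13.6, 21.4, 9.85, 17.7 and 22.0 CPM in LCR runners, which overlap. In sedentary rats it ran from 12.2 to 23.3 CPM in HCR (median 20.9), against 8.40 to 20.4 CPM in LCR (median 12.3), again with overlap. Its log2 fold change of 0.58 (SE 0.17) in sedentary rats gave an adjusted p of 0.0672, and that of 0.46 (SE 0.22) in runners gave 0.564, both by the edgeR quasi-likelihood test.

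When the line difference was averaged over both activity groups, a contrast added after the values were seen that uses the same libraries, 3 of 34 members passed, beside 3.75% of all tested genes. These were Riok1, Gtpbp4 and Nob1, the last at 0.52 (SE 0.14, adjusted p = 0.0287). Nob1 exceeded the LCR mean of its activity group in 7 of 8 sedentary and 4 of 5 running HCR rats. Its call was lost without LCR running 1, LCR running 3, HCR running 3 or HCR running 5 (adjusted p = 0.0611, 0.0717, 0.0718 and 0.055) and with the title's line (adjusted p = 0.105). Without both HCR running 5 and LCR running 5 it was kept, at 0.54 (adjusted p = 0.0421, edgeR).

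None of the other late 40S factors passed between the lines. The kinases Riok2 and Riok3, which also act in 40S maturation, had sedentary log2 differences of 0.10 (SE 0.19) and 0.02 (SE 0.12), and Riok2 had -0.57 (SE 0.26, adjusted p = 0.484, edgeR) in runners. Bysl and Ltv1, which sit on the early cytoplasmic 40S precursor, had -0.08 (SE 0.15) and -0.08 (SE 0.11). Rrp12, an export factor of pre-ribosomes, was at 48.03 to 58.2 CPM in HCR runners and 36.9 to 47.5 CPM in LCR runners without overlap, yet had a log2 difference of 0.23 (SE 0.14, adjusted p = 0.683, edgeR). Tsr1, a GTPase-like 40S factor, differed by -0.27 (SE 0.10, adjusted p = 0.362) in runners and 0.06 (SE 0.08) in sedentary rats.

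Among the 60S factors other than Gtpbp4, Rrs1, which helps to load the 5S particle, had the smallest adjusted p in sedentary rats. It ran from 101.5 to 158.8 CPM in sedentary HCR (median 116.2) against 111.3 to 198.3 CPM in sedentary LCR rats (median 164.4), and these ranges overlap (-0.34 on the log2 scale, SE 0.11, adjusted p = 0.0837 by edgeR). The PeBoW complex, needed for processing of the large subunit precursor, had Bop1 at -0.57 (SE 0.22), Wdr12 at 0.42 (SE 0.17) and Pes1 at -0.06 (SE 0.11) in runners, with adjusted p-values of 0.357, 0.397 and 0.937. Nop16, Mrto4 and Nip7, which bind 60S precursors, had sedentary differences of -0.25, -0.23 and 0.32 (SE 0.12, 0.10 and 0.20), none of which passed. In runners they had -0.05, 0.03 and -0.44 (SE 0.155, 0.13 and 0.28), and again none passed.

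Earlier steps of the pathway showed no member that passed between the lines. The polymerase I subunits Polr1a and Polr1b, its largest catalytic subunits, had sedentary log2 differences of -0.15 (SE 0.14) and -0.27 (SE 0.16). Nucleolin (Ncl) and nucleophosmin (Npm1), abundant nucleolar proteins, differed by 0.07 (SE 0.09) and 0.07 (SE 0.08). Of the snoRNP proteins, the methyltransferase Fbl was at 0.23 (SE 0.10, adjusted p = 0.221), while its box C/D partners Nop56 and Nop58, the pseudouridine synthase Dkc1 and the chaperone Nolc1 were at -0.08, -0.16, -0.24 and -0.22.

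The small subunit processome, the large particle that folds and cuts the 18S part of the precursor, held no member that passed. Its members Heatr1 and Wdr43, which join the precursor early, Rrp9, a protein of the U3 snoRNP, and Utp14a, Nop14 and Utp18 had sedentary differences between -0.12 and 0.08. Utp4 and Utp15, of the same early complex as Heatr1, had 0.46 (SE 0.21, adjusted p = 0.284) and 0.23 (SE 0.31), and Utp15 was at a few CPM in each group. Over all 34, the median log2 difference was -0.05 in sedentary rats (13 above 0) and 0.02 in runners (18 above 0), against 0.01 and 0.00 for all tested genes. The 2 line comparisons share no library, and 17 of 34 members (50%) had the same sign in both, beside 58.25% of all tested genes.

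The running comparisons called no member. In LCR 0 of 34 members passed, beside 0 of 10064 genes (0% called, and 2 genes by DESeq2). In HCR 0 of 34 passed beside 0.0994% of all genes, and averaged over the lines 0 of 34 beside 0.378%. At an unadjusted p under 0.05, 0 of 34 members stood out in LCR runners beside 6.08% of all genes, 6 of 34 in HCR runners beside 12.5%, and 1 of 34 in the average beside 12.7%. DESeq2 and limma voom also called 0 members in these 3 contrasts.

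**Figure D3:**
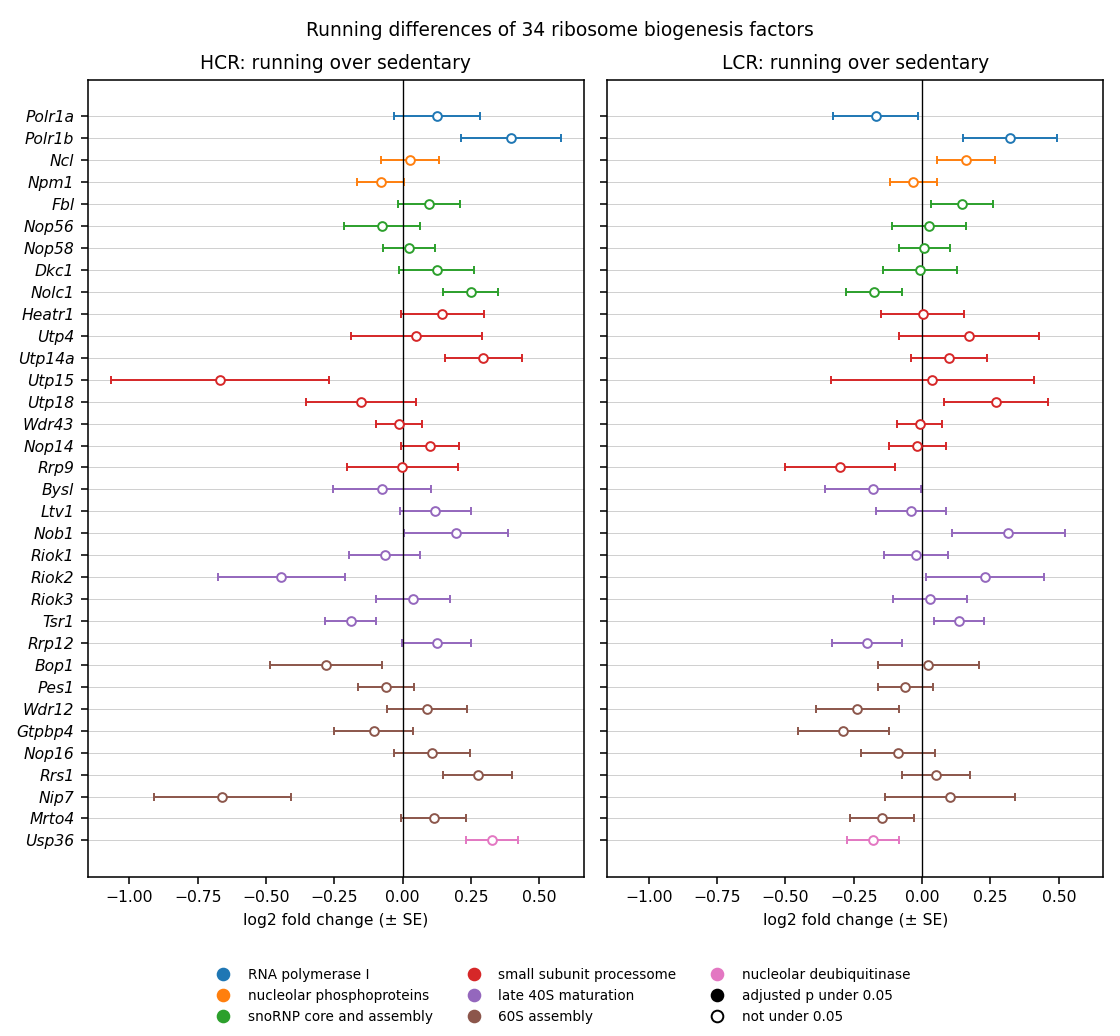
Log2 fold change (running over sedentary, ± SE, edgeR quasi-likelihood fit) of the 34 tested members in HCR (left) and LCR (right), coloured by role, with n = 5 running and 8 sedentary rats in each line. No point is filled, and the members scatter to both sides of 0.

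The precision behind these values was a median SE of 0.14 per member on the log2 scale in each line. Within LCR, all 34 members differed by less than 0.5 on the log2 scale, and 29 by less than 0.25. Within HCR, 32 differed by less than 0.5 and 26 by less than 0.25. The median member difference was 0.00 in LCR and 0.04 in HCR. In HCR, adipocyte markers summed to 204.4 to 329.1 CPM in runners against 236.7 to 472.6 CPM in sedentary rats, and 0 of 5 passed. No marker of the other lists passed in this contrast either. Their median log2 differences were 0.208 (slow fibre), -0.479 (fast fibre), -0.435 (satellite cell), -0.428 (Schwann cell), -0.3 (fibro-adipogenic), -0.186 (endothelial), -0.074 (macrophage) and -0.033 (pericyte and smooth muscle). The part of all these markers was not tested.

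Usp36, which encodes a deubiquitinase of nucleolar proteins and of Myc, had the smallest p among members for running in HCR. It was at 122.5, 141.0, 159.6, 130.0 and 154.3 CPM in HCR runners, against 90.9 to 125.3 CPM in sedentary HCR rats (median 113.6). In LCR runners it was at 108.0, 105.6, 133.3, 123.8 and 112.6 CPM, against 102.3 to 145.4 CPM in sedentary LCR rats (median 137.4). All 5 HCR runners exceeded the sedentary HCR mean, and 1 of 5 LCR runners exceeded the sedentary LCR mean, with overlap in both lines. Between the lines, Usp36 differed by 0.28 (SE 0.11, adjusted p = 0.348) in runners and by -0.23 (SE 0.08, adjusted p = 0.138) in sedentary rats, by edgeR.

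The running log2 fold change of Usp36 was 0.33 (SE 0.10, adjusted p = 0.144) in HCR and -0.18 (SE 0.10, adjusted p = 0.829) in LCR by the edgeR quasi-likelihood test. The difference between these responses was 0.51 (SE 0.14, unadjusted p = 0.000649), the third smallest p of 10064 genes, with an adjusted p of 0.835. Without HCR running 5 and LCR running 5 it was 0.46 (adjusted p = 0.969, edgeR), and with the title's line 0.33. For this contrast 0 of 34 members passed beside 0% of all genes, and 5 of 34 had an unadjusted p under 0.05 beside 5.88%. DESeq2 and limma voom called 0 members for it as well.

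**Figure D4:**
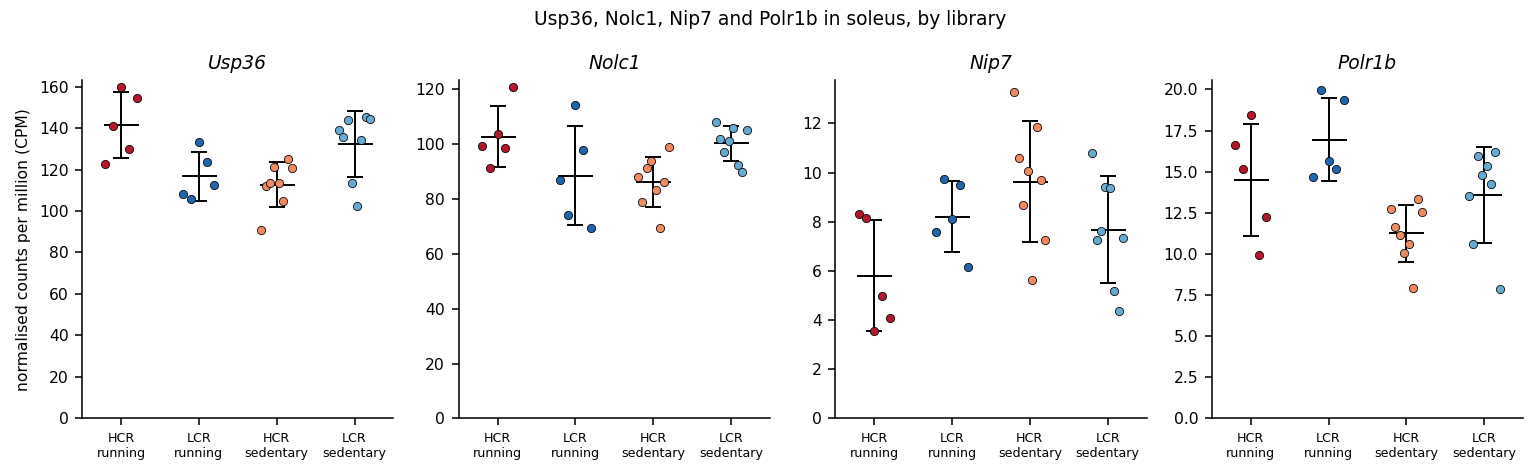
Normalised level in CPM of Usp36, Nolc1, Nip7 and Polr1b, with 1 point per library, the bar at the group mean and whiskers of 1 SD (n = 5, 5, 8 and 8). For Usp36 and Nolc1 the HCR runners tend to lie above the sedentary HCR rats and the LCR runners below the sedentary LCR rats, with overlap and no adjusted p under 0.05.

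Nolc1, a chaperone that brings snoRNPs to the nucleolus, had a positive response in HCR and a negative one in LCR, neither of which passed. It was at 99.1, 91.1, 103.6, 98.6 and 120.6 CPM in HCR runners, against 69.4 to 99.0 CPM in sedentary HCR rats (median 86.9). In LCR runners it was at 86.8, 74.0, 114.1, 97.9 and 69.5 CPM, against 89.9 to 108.1 CPM in sedentary LCR rats (median 101.3). The groups of each line overlap. Its response was 0.25 (SE 0.10, adjusted p = 0.297) in HCR and -0.18 (SE 0.10, adjusted p = 0.835) in LCR, and the responses differed by 0.42 (SE 0.14, adjusted p = 0.835), all by edgeR. Without HCR running 5 and LCR running 5 the LCR response was -0.11, the HCR response 0.19 and their difference 0.30 (adjusted p = 0.969). With the title's line for these libraries the difference was 0.14.

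Polr1b was the member of smallest p for running averaged over the lines. It had 16.6, 15.2, 18.4, 9.94 and 12.3 CPM in HCR runners, against 7.91 to 13.3 CPM in sedentary HCR rats (median 11.4). In LCR runners it had 14.7, 19.95, 15.6, 15.2 and 19.4 CPM, against 7.85 to 16.2 CPM in sedentary LCR rats (median 14.5). Its average difference was 0.36 (SE 0.13, adjusted p = 0.199, edgeR), with 4 of 5 HCR runners and 5 of 5 LCR runners above the sedentary mean of their line and overlapping groups.

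Nip7, a 60S factor of low count, was at 8.31, 8.14, 3.55, 4.97 and 4.09 CPM in HCR runners, against 5.62 to 13.3 CPM in sedentary HCR rats (median 9.88). All 5 runners lay below the sedentary mean, yet the difference of -0.66 (SE 0.25) had an adjusted p of 0.25 by edgeR. In LCR, Nip7 was at 6.16 to 9.73 CPM in runners and 4.37 to 10.8 CPM in sedentary rats. Its LCR response was 0.10 (SE 0.24, adjusted p = 0.974), and the responses differed by -0.76 (SE 0.345, adjusted p = 0.837), by edgeR. HCR runners also had fewer total counts than sedentary HCR rats on average. After removal of group means, the correlation with log2 total counts was 0.518 for Nip7, -0.398 for Usp36 and -0.088 for Nolc1. The part of depth in their running differences was not tested.

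Utp14a, which activates a helicase of the processome, was at 38.9, 38.0, 34.8, 37.3 and 37.8 CPM in HCR runners, against 27.1 to 41.1 CPM in sedentary HCR rats (median 29.5). In LCR runners it was at 28.2, 36.5, 39.4, 22.7 and 42.2 CPM, against 24.0 to 40.3 CPM in sedentary LCR rats (median 32.2). All groups overlapped, and its average over the lines was 0.20 (SE 0.10, adjusted p = 0.407, edgeR). Rrs1 was at 118.9, 137.8, 173.1, 160.7 and 181.9 CPM in HCR runners and 141.6, 158.1, 156.4, 200.3 and 176.8 CPM in LCR runners, which overlap with the sedentary ranges above, and its average was 0.16 (SE 0.09, adjusted p = 0.449).

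Tsr1 had a negative response in HCR and a positive one in LCR, neither of which passed. It was at 84.6, 96.6, 114.2, 96.1 and 83.8 CPM in HCR runners, against 96.4 to 126.6 CPM in sedentary HCR rats (median 104.7). In LCR runners it was at 111.8, 105.6, 113.6, 104.2 and 138.9 CPM, against 92.8 to 116.1 CPM in sedentary LCR rats (median 104.9). The groups overlapped in both lines. Its response was -0.19 (SE 0.09) in HCR and 0.14 (SE 0.09) in LCR, and these differed by -0.33 (SE 0.13, adjusted p = 0.835, edgeR). The highest value, 138.9 CPM, belongs to LCR running 5, whose title names the other line. Without it and HCR running 5 the difference was -0.22 (adjusted p = 0.969), and with the title's line it was -0.05.

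Riok1 and Gtpbp4, which differed between the lines, did not pass in any running contrast. Riok1 differed by -0.07 (SE 0.13) in HCR and -0.02 (SE 0.12) in LCR, and these differed by -0.04 (SE 0.18, adjusted p = 0.986, edgeR). Gtpbp4 differed by -0.11 (SE 0.14) in HCR and -0.29 (SE 0.17) in LCR, and these differed by 0.18 (SE 0.22, adjusted p = 0.943, edgeR).

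Outside the 35, 133 further ribosome production factors were in the table and 122 were tested. In sedentary rats 2 of 122 (1.64%) were higher in HCR and 0 lower, beside 2.72% of all genes. These were Taf1a, a subunit of the selectivity factor of polymerase I, at 0.76 (SE 0.21, adjusted p = 0.0429), and Ddx10, an RNA helicase of the small subunit pathway, at 0.45 (SE 0.12, adjusted p = 0.0402), by edgeR. Taf1a had 8.22 ± 1.86 CPM in sedentary HCR and 4.81 ± 1.49 CPM in sedentary LCR rats, and Ddx10 had 61.0 ± 13.6 CPM in sedentary HCR and 44.8 ± 8.68 CPM in sedentary LCR rats (SD, n = 8 each).

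The median of these 122 in sedentary rats was -0.08 on the log2 scale, with 34 above and 88 below 0, while all genes had a median of 0.01. None of the 122 passed in runners or in any running contrast, and their medians there lay between -0.04 and 0.04. Of 23 tested regulators, among them Mtor, Myc partners and Mdm2, 0 passed in the 6 planned contrasts.

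The ribosomal proteins themselves, 76 genes that were all tested, included 4 called in sedentary rats (5.26%), beside 2.72% of all tested genes. Rpl10a and Rps28 were higher in HCR by 1.67 (SE 0.31, adjusted p = 0.00292) and 0.35 (SE 0.08, adjusted p = 0.0068), and Rpl6 and Rpl19 were lower, at -0.47 (SE 0.10, adjusted p = 0.00745) and -0.39 (SE 0.09, adjusted p = 0.00854), by edgeR. In runners Rpl6 and Rpl19 were again lower in HCR (-0.59 and -0.50, adjusted p = 0.0216 and 0.0234 by edgeR). They were the 2 called in runners (2.63%), beside 0.626% of all tested genes. Below 0 lay 39 of 76 in sedentary rats (median -0.003 on the log2 scale) and 68 of 76 in runners (median -0.128). Rpl10a was at 96.5 to 137.6 CPM in sedentary HCR rats, against 12.5 to 19.9 CPM in 5 of 8 sedentary LCR rats and 55.4, 70.3 and 86.6 CPM in the other 3, so the size of its sedentary difference rests on those 5 libraries. It was at 72.6 to 121.5 CPM in HCR runners and 52.8 to 70.8 CPM in LCR runners. Ribosomal protein genes have many near-identical copies, so these counts are uncertain. No ribosomal protein passed in a running contrast. For running, 67 of 76 lay above 0 in LCR (median 0.083) and 23 of 76 in HCR (median -0.042).

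Members were weakly correlated from animal to animal. After removal of the group means, the median correlation over 26 libraries was 0.057 for the 561 pairs of members, against -0.001 for all pairs of tested genes. Libraries share depth and composition in both cases, and the value is a description.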

How the data were processed

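The authors deposited raw read counts for each gene, in whole numbers and without normalisation, as their values show. Library priming was at the poly(A) tail, with reads from 1 end, per the labels' protocols. The submitters' processing notes name STAR, featureCounts, UMI-tools, cutadapt, FastQC and MultiQC, and the assembly mRatBN7.2 (rn7). The labels say neither whether molecular identifiers were collapsed nor whether counting used strand, so genes that overlap, antisense genes and genes with close copies are uncertain, and counting precision may be lower than totals imply.

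All 26 libraries entered 1 edgeR 4.0.16 quasi-likelihood fit (R 4.3.3, robust dispersion, TMM, filterByExpr by group, no covariate). Genes were called at a Benjamini-Hochberg adjusted p under 0.05 over all 10064 tested genes. SE was taken as the absolute log2 fold change over the root of F. CPM are counts scaled to TMM-adjusted library size, and log2 CPM uses a prior count of 2. The tests were tried on simulated data, except that of the difference of running responses. The alternatives were RLE and upper-quartile factors, no filter, DESeq2 1.42.0, limma 3.58.1 voom with quality weights, the 2 groups alone, a replicate block, the title's line for 2 libraries, their removal, and each library left out. Within each group no libraries were duplicates by a chi-square statistic over genes (smallest 2.259 per degree of freedom). Pairs of libraries from different groups were not compared in this way.

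Members and lists were chosen with earlier results of these data known. Full values are given for members called in a contrast and, where fewer than 3 were, for those of smallest p up to 3. Of the other lists, up to 4 called genes are named. Other members are given by role, and Dsp, the averaged line contrast and the CGGAAG motif were chosen after their values were seen.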

Additional observations from a re-analysis of the deposited data

Results flagged for a closer look

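Of 48 groups of libraries looked at, for 12 genes (the members with full values, Taf1a and Ddx10), 2 held a library far from the others, and chance gives about 1 in 20. Utp14a reached 41.05 CPM in HCR sedentary 4, the highest of 8, with 0.626 of the group's range between it and the next. Tsr1 reached 138.9 CPM in LCR running 5, the highest of 5, with 0.729 of the range between it and the next, in a library whose title names the other line. Neither gene was called in any contrast.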

How the results depend on the processing

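Riok1 and Gtpbp4 were called in both line comparisons under every alternative except the title's line for HCR running 5 and LCR running 5, which left 0 members called in runners (Riok1 -0.59, Gtpbp4 0.80). That setting moves the labels of 2 libraries. Leaving out 1 library at a time gave 2 to 3 members called in sedentary rats and 2 in runners, and 0 in each running contrast and in the difference of responses. The third in sedentary rats was Nob1 without LCR sedentary 8 (adjusted p = 0.0301) or HCR sedentary 4 (0.0341), Rrs1 without LCR sedentary 2 or HCR sedentary 2, and Usp36 without LCR sedentary 5. In the averaged line contrast 2 to 4 members were called, with Bop1 added without HCR running 2.

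The counts over all genes moved more. In runners the line count of 63 was 35 with the 2 groups alone, 35 without the 2 libraries with conflicting titles and 0 with the title's line. The largest count under the other alternatives was 92. Leaving out 1 library gave 32 to 67, with 32 without HCR running 3, 38 without LCR running 5 and 41 without LCR running 3. Running in HCR gave 10 calls, 79 with DESeq2 and 4 (without HCR running 3) to 38 (without HCR sedentary 4) with 1 library left out. Running averaged gave 38, 80 with DESeq2, 58 with voom, 19 with the replicate block and 9 (without LCR running 1) to 63 (without LCR running 5) with 1 library left out. Running in LCR gave 0, and 2 without the filter and with DESeq2. It gave 1 without the 2 libraries with conflicting titles, and 0 to 2 with 1 library left out. The averaged line count of 377 was 137 with the title's line. The sedentary line count of 274 was 223 with the 2 groups alone and 367 with voom. With 1 library left out it ran from 182 (without LCR sedentary 7) to 337. The cause was not tested.

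Replicate numbers did not pair the libraries: of 33 same-numbered pairs, correlations of deviations ran from -0.221 to 0.257, and 2 of 26 libraries correlated best with their own number. With the replicate block, 2, 2 and 0 members were called in the sedentary line, running line and each running contrast. Depth limits members of a few CPM, such as Nop2, Utp15 and Nip7.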

Other observations

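Values for the 133 further factors and the regulators in the averaged line contrast, added after seeing the values, were as follows. Aatf and Ddx47, factors of the small subunit pathway, were lower in HCR, at -0.45 and -0.44 on the log2 scale (SE 0.11 each, adjusted p = 0.0187 and 0.0188, edgeR). Mlst8, a subunit of mTOR complexes, was at -0.34 (SE 0.10, adjusted p = 0.041, edgeR). Called were thus 2 of 122 tested further factors (1.64%) and 1 of 23 tested regulators (4.35%), beside 3.75% of all tested genes. Of 76 ribosomal proteins, 7 (9.21%) were called in the same contrast, 2 higher and 5 lower in HCR, beside 3.75% of all tested genes. Those of smallest adjusted p were Rpl6 (-0.53, adjusted p = 0.00011), Rpl19 (-0.44, adjusted p = 0.000128), Rps28 (0.36, adjusted p = 0.000249) and Rpl10a (1.22, adjusted p = 0.00342), by edgeR.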
